A study of Homo sapiens with 6 samples.

Results

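The genes described here are 10 regulators of the step from the G1 phase of the cell cycle into DNA replication: the D-type cyclins CCND1, CCND2 and CCND3, cyclin E1 (CCNE1), the kinases CDK6 and CDK2, the kinase inhibitor CDKN1B (p27), the phosphatase CDC25A, and the retinoblastoma proteins RB1 and RBL1 (p107). They were chosen by name, with earlier results of these data known. Their transcripts were found by joining the transcript identifiers of the expression tables to GENCODE, and estimated counts and TPM (a level per transcript length, scaled to one total in every library) were summed per gene. They are 10 of 35580 genes with a joined transcript, and all 10 were among the 15204 genes that passed the filter on low counts and were tested.

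RNA was sequenced from Rh30, an established line of alveolar rhabdomyosarcoma, a tumour of cells with a skeletal muscle programme, which carries the PAX3-FOXO1 gene fusion. The libraries were 3 controls and 3 with a knockdown of DDX5 (siDDX5), a DEAD-box RNA helicase, described by the submitters as biological replicates. Every library came from this single line. The labels do not say what the control cells received, which siRNA sequence was used or how long after transfection the cells were collected.

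In dividing cells, D-type cyclins bind CDK4 or CDK6, and cyclin E binds CDK2. The active kinases phosphorylate RB1 and its relatives RBL1 and RBL2, which releases E2F transcription factors and lets the genes of DNA replication be transcribed. CDKN1B inhibits cyclin E-CDK2, and CDC25A activates CDK2 by removing inhibitory phosphates. Much of this control acts on the proteins, by phosphorylation and degradation, which RNA levels do not measure.

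The libraries held 18202402 to 26156858 estimated counts, with every control library deeper than every siDDX5 library, and the part of depth in the results was not tested. Levels of a gene are given below as CPM (counts scaled to a common library total) normalised between libraries by TMM, and 3 counts, the limit that a count of 0 allows, corresponded to 0.115 to 0.165 CPM. DDX5 itself stood at 1356, 1438 and 1141 CPM in control replicates 1 to 3 and at 551, 506 and 397 CPM in the siDDX5 replicates. DDX5 was therefore lower in all 3 siDDX5 libraries, with a log2 fold change of -1.44 ± 0.15 (SE; adjusted p = 0.0115 in edgeR). The adjusted p of DDX5 in edgeR was 0.0916 without control replicate 1, 0.0583 without siDDX5 replicate 1 and 0.0587 without siDDX5 replicate 2, with log2 fold changes of -1.41, -1.54 and -1.47. All 8 muscle and fusion markers were detected, from a mean of 19.5 TPM for PAX3 to 444 TPM for DES. Among markers of other cell types, KRT5, ALB, EPCAM and VWF did not exceed 0.67 TPM in any library, while CD68 (9.44 to 16.7 TPM), PECAM1 (3.97 to 6.88 TPM) and PTPRC (0.71 to 3.43 TPM) were detected. Both libraries of replicate number 3 stood apart on the first principal component, which held 32.5% of the variance. On the second component, which held 29.2%, the control libraries (7.70 to 23.3) all lay above the siDDX5 libraries (-24.6 to 1.31).

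No gene of the 10 passed an adjusted p of 0.05 in the edgeR quasi-likelihood test, beside 26 of all genes tested, or 0.171% (0.0526% higher and 0.118% lower in siDDX5). At an unadjusted p under 0.05 there were 3 of the 10 (CDC25A and CDK6 higher, CDK2 lower), beside 11.3% of all genes. With the replicate number as a block, which takes out what control and siDDX5 libraries of one number share, 1 of the 10 passed (CDC25A, higher), beside 2.48% of all genes (1.08% higher, 1.4% lower). DESeq2 called CDC25A alone of the 10, beside 2.15% of all genes (0.96% higher, 1.19% lower). The control and siDDX5 values did not overlap for 3 of the 10, siDDX5 being above for CDC25A and CDK6 and below for CDK2, beside 18% of all genes (8.85% above, 9.2% below). The median log2 fold change of the 10 genes was -0.03, against -0.00168 over all genes tested. In bulk RNA, a change in the share of cells in a phase of the cycle and a change in RNA per cell cannot be told apart.

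**Figure D1:**
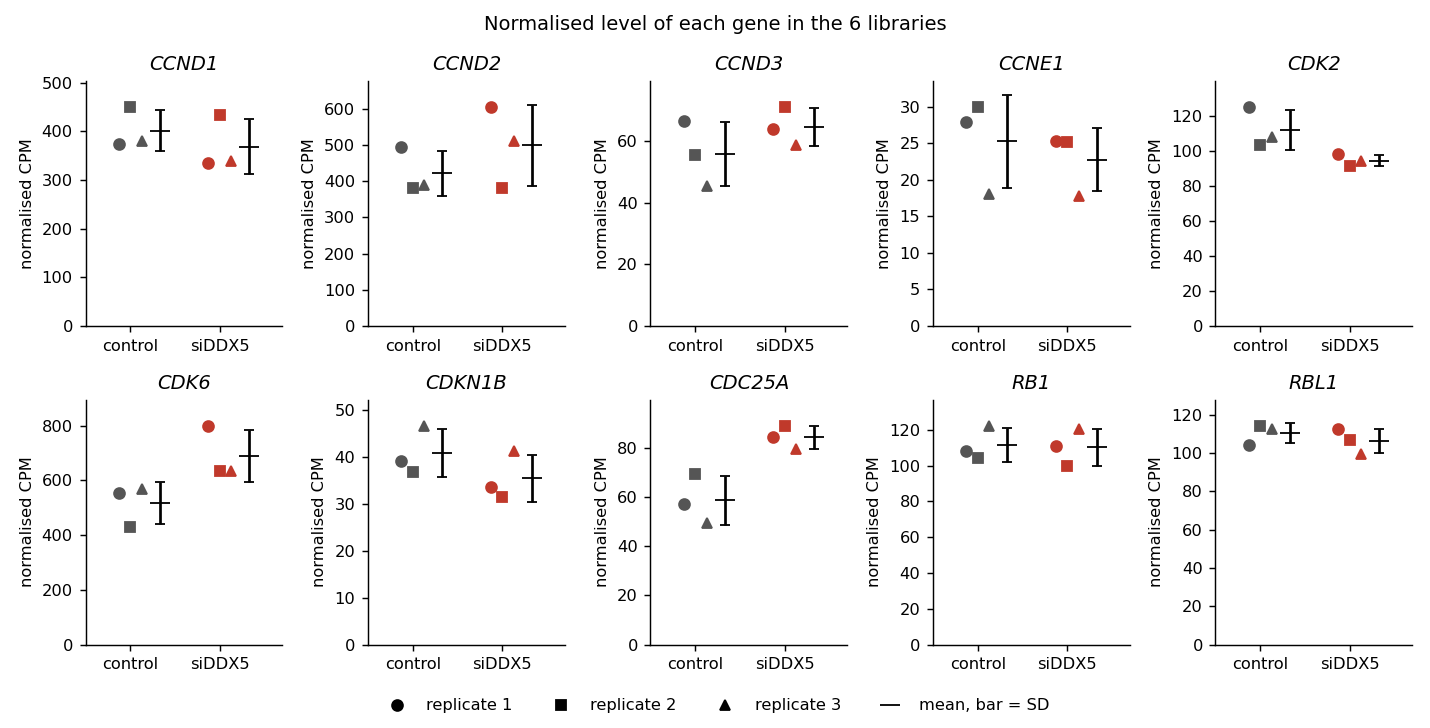
Normalised CPM of each of the 10 genes in the 3 control (grey) and 3 siDDX5 (red) libraries, with circles, squares and triangles for replicates 1, 2 and 3 and a mean with its SD beside each group. The control and siDDX5 points separate for CDC25A and CDK6 (siDDX5 above) and for CDK2 (siDDX5 below).

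CDC25A (chr3:48157146-48188402, minus strand, GRCh38), the phosphatase that activates CDK2, had the largest difference of the 10. Its level was 57.4, 69.5 and 49.4 CPM in control replicates 1 to 3 and 84.6, 89.2 and 79.8 CPM in the siDDX5 replicates. Every siDDX5 library was above every control library. The means were 58.8 ± 10.1 and 84.5 ± 4.72 CPM (SD, n = 3 each), a 1.44-fold higher level in siDDX5. On the log2 scale the fitted difference was 0.52 ± 0.13 (SE), with a 95% interval of 0.23 to 0.82 and an adjusted p of 0.185 in edgeR. The replicate block gave 0.54 ± 0.09 (SE; adjusted p = 0.0206 in edgeR), and the ratio was above 0 on the log2 scale within each replicate number, at 0.56, 0.36 and 0.69. The DESeq2 adjusted p was 0.0237, and the adjusted p over all 16 alternative fits ran from 0.0206 to 0.629. On the TPM scale the gap was narrow, since the highest control library stood at 35.26 and the lowest siDDX5 library at 35.35 TPM.

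Some genes of this step, CDC25A and RBL1 among them, are known as genes that E2F factors activate. This is not a full list, and a gene not named here may also be such a target. The windows around the transcription start, from RefSeq on GRCh38.p14, of the genes described here that had one were searched on both strands. The words were TTTGGCGC, TTTCCCGC and TTTCGCGC, known forms of the E2F-binding word. Each 300-base window (250 before to 50 after the start) of all 35116 in the table was searched in the same way, and 2.74% held at least 1 of these words, with 0.652% holding TTTGGCGC. Among the windows present for CCND3, CCNE1, CDC25A, CDK6, CDKN1B and RBL1, those of CDC25A and RBL1 held a word. CCND1, CCND2 and CDK2 were not searched, and the RB1 window, which held none, does not lie at the annotated start of the gene and is not used here. The 250 bases before the start of CDC25A and RBL1 are shown because they hold the only such matches among those genes. The matched words are in capitals, 5′ to 3′ in the direction of transcription.
CDC25A, chr3:48188418-48188667, minus strand: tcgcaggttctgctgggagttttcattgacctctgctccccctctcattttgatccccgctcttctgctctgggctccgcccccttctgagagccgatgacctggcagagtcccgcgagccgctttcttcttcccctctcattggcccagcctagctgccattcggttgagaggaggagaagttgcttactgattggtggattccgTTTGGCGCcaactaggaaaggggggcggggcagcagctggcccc
RBL1, chr20:37095998-37096247, minus strand: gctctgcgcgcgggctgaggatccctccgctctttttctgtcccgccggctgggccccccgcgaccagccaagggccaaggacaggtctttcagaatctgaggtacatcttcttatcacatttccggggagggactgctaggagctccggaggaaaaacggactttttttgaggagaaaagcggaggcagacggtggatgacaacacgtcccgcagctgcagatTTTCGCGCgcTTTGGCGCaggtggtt
The word in CDC25A begins 44 bases before the start, and those in RBL1 begin 26 and 16 bases before it. These are matches of letters, and binding was not measured. CDC25A was higher in siDDX5 and RBL1 differed little, as the values for RBL1 below show. A link between these words and the levels was not tested.

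CDK2 (chr12:55966769-55972784, plus strand), the kinase that CDC25A activates, differed in the opposite direction from CDC25A. It measured 125, 103 and 108 CPM in the control replicates and 98.0, 91.3 and 94.1 CPM in the siDDX5 replicates, so that all siDDX5 values lay below all control values. The means were 112 ± 11.5 and 94.5 ± 3.37 CPM (SD, n = 3 each). A fitted log2 fold change of -0.24 ± 0.11 (SE) had an unadjusted p of 0.0496 and an adjusted p of 0.442 in edgeR, or 0.156 under the block. All 3 replicate numbers gave a lower value in siDDX5, with log2 ratios of -0.35, -0.18 and -0.19. The separation did not hold per length: on the TPM scale control replicate 2 (72.3) was below siDDX5 replicate 1 (73.0).

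CCNE1 (chr19:29811898-29824308, plus strand), the cyclin partner of CDK2, had the lowest mean TPM of the 10, though it was below CDKN1B in only 3 of the 6 libraries. Control libraries stood at 27.9, 29.9 and 18 CPM and siDDX5 libraries at 25.3, 25.1 and 17.8 CPM. Replicate 3 was the lowest of both groups, and the groups overlapped. edgeR gave a log2 difference of -0.15 ± 0.21 (SE), with an interval of -0.62 to 0.32 (adjusted p = 0.832). The related CCNE2, named here as its family member, made up most of the E-type cyclin RNA. CCNE1 held 31.3 ± 5.52% of the summed TPM of CCNE1 and CCNE2 in control and 31.2 ± 4.64% in siDDX5 (SD, n = 3 each).

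CDKN1B (chr12:12715058-12722371, plus strand), the inhibitor p27, measured 39.1, 36.7 and 46.6 CPM in control and 33.5, 31.5 and 41.1 CPM in siDDX5. Replicate 3 was the highest of both groups, and the siDDX5 library was the lower one within each replicate number, by log2 ratios of -0.22, -0.22 and -0.18. The groups overlapped. The fitted log2 fold change was -0.21 ± 0.14 (SE; adjusted p = 0.624 in edgeR), and with the block the unadjusted p was 0.047 and the edgeR adjusted p 0.237.

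CDK6 (chr7:92604921-92836594, minus strand), a partner kinase of the D-type cyclins, had the second largest difference. Its level was 553, 428 and 567 CPM in the control replicates and 799, 636 and 634 CPM in the siDDX5 replicates. All siDDX5 values were above all control values, with siDDX5 replicate 1 the highest. The means were 516 ± 76.6 and 689.8 ± 94.8 CPM (SD, n = 3 each), 1.34-fold higher in siDDX5. Its fitted log2 fold change was 0.42 ± 0.15 (SE), with an interval of 0.09 to 0.74, an unadjusted p of 0.0171 and an adjusted p of 0.318 in edgeR. Under the block the adjusted p was 0.0851 in edgeR. The ratio within replicate number 3 was the smallest, at 0.16 on the log2 scale, beside 0.53 and 0.57 for numbers 1 and 2. On the TPM scale the groups overlapped, since siDDX5 replicate 2 (105 TPM) was below control replicates 1 (106 TPM) and 3 (112 TPM). CDK6 RNA was a small part of the RNA of the D-cyclin kinases in this line, and the proteins were not measured. Mean TPM of CDK6 was 100.6 in control and 124.6 in siDDX5, beside 10784 and 11278 for CDK4. Summed TPM of CDK4 and CDK6 was 99.06 ± 0.230% CDK4 in control and 98.9 ± 0.241% in siDDX5, and CDK4, named here as the other kinase of the pair, had a log2 fold change of 0.15 (adjusted p = 0.776 in edgeR).

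CCND1 (chr11:69641087-69654474, plus strand) had the highest mean TPM of the 10, though it was above CCND2 in only 4 of the 6 libraries. It stood at 374, 449 and 379 CPM in control and at 334, 433 and 338 CPM in siDDX5. Replicate 2 was the highest of both groups and the groups overlapped. The siDDX5 value was lower within each replicate number, by log2 ratios of -0.16, -0.05 and -0.17. The fitted value was -0.12 ± 0.13 (SE), with an interval of -0.42 to 0.18 (adjusted p = 0.781 in edgeR).

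CCND2 (chr12:4273772-4305350, plus strand) measured 493, 381 and 391 CPM in control and 604, 381 and 511 CPM in siDDX5. Replicate 2 was the lowest of both groups, with a log2 ratio of 0.00101 between them, and the other two numbers had the higher value in siDDX5. For CCND2 the log2 fold change was 0.24 ± 0.17 (SE), with an interval of -0.15 to 0.63 (adjusted p = 0.636 in edgeR). CCND3 (chr6:41934933-42050357, minus strand) stood at 66.6, 55.7 and 45.7 CPM in control and at 64.0, 71.1 and 59.0 CPM in siDDX5. Its ratio was near 0 within number 1, at -0.06 on the log2 scale, and 0.35 and 0.37 within numbers 2 and 3. For CCND3 the log2 fold change was 0.21 ± 0.15 (SE), with an interval of -0.12 to 0.54 (adjusted p = 0.63 in edgeR).

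The makeup of the D-type cyclin RNA was described from TPM, with no test. CCND1 held 50.4 ± 4.97% of the summed TPM in control and 43.8 ± 6.68% in siDDX5 (SD, n = 3 each). CCND2 held 36.1 ± 4.19% and 39.9 ± 7.83%, and CCND3 13.6 ± 1.602% and 16.3 ± 1.15%. CCND1 was the largest share in all control libraries, whereas CCND2 was the largest in siDDX5 replicates 1 and 3. Since CCND1, CCND2 and CCND3 have transcripts of different lengths, the shares of CPM differ: CCND2 held 47.9% of the summed CPM in control and 53.2% in siDDX5, and CCND3 6.34% and 6.97%.

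**Figure D2:**
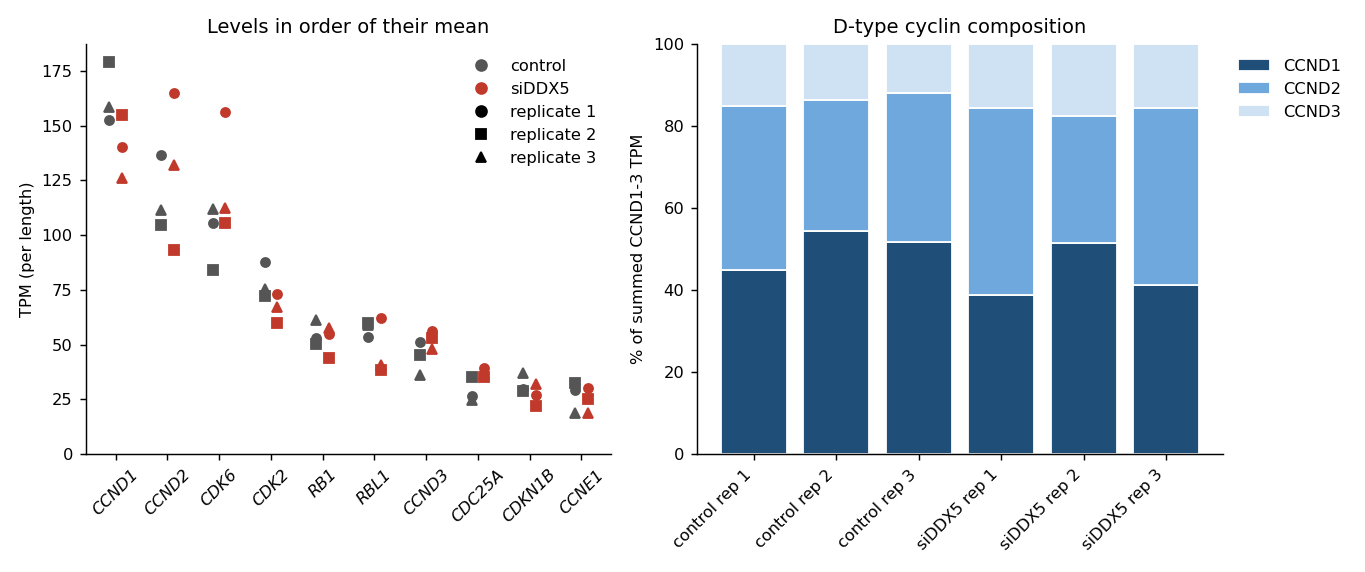
Left, TPM of each gene in the 6 libraries (control grey, siDDX5 red; circle, square and triangle for replicates 1, 2 and 3), in order of the mean from CCND1 (152 TPM) to CCNE1 (25.8 TPM). Right, stacked bars of the percent of summed D-type cyclin TPM held by CCND1, CCND2 and CCND3 in each library, where CCND3 is the smallest share in all 6.

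Per length, the order of the means over all 6 libraries was CCND1 (152 ± 18 TPM, SD, n = 6), CCND2 (124 ± 25.9), CDK6 (113 ± 23.7), CDK2 (72.6 ± 9.28), RB1 (53.5 ± 5.91), RBL1 (52.2 ± 10.3), CCND3 (48.3 ± 6.99), CDC25A (32.9 ± 5.83), CDKN1B (29.4 ± 5.01) and CCNE1 (25.8 ± 5.92). A gene was above the next one in this order in all 6 libraries for CDK6 over CDK2, for CDK2 over RB1 and for CCND3 over CDC25A. The other neighbours changed places in 2 or 3 of the 6 libraries, so their order is not set by these data.

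RB1 (chr13:48303726-48599436, plus strand), the retinoblastoma protein gene, had the smallest difference of the 10. It measured 108, 104 and 122 CPM in control and 111, 99.6 and 120.2 CPM in siDDX5. Replicate 3 was the highest of both groups and the groups overlapped throughout. The log2 fold change was -0.02 ± 0.11 (SE), with an interval of -0.27 to 0.24 (adjusted p = 0.976 in edgeR).

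RBL1 (chr20:36996349-37095995, minus strand), which encodes p107, stood at 104, 114 and 112 CPM in control and at 112, 107 and 99.5 CPM in siDDX5. The groups overlapped, and the ratio was above 0 within number 1 and below 0 within numbers 2 and 3. For RBL1 the fitted log2 difference was -0.05 ± 0.10 (SE), with an interval of -0.28 to 0.17 (adjusted p = 0.883 in edgeR). On the TPM scale RBL1 had a larger difference, 57.4 ± 3.53 in control and 47.1 ± 13.1 in siDDX5. A short transcript of 763 bases, ENST00000525052.1, with 4.41% of the gene's counts in control and chosen after its values were seen, moved with it: its TPM was 16.2, 18.8 and 17.1 in control and 20.2, 4.46 and 4.90 in siDDX5, so it was low in siDDX5 replicates 2 and 3 only. Its part in the difference was not tested.

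The related RBL2, which encodes p130, belongs to the list of other pathway genes. It stood at 101 ± 3.87 CPM in control and 80.0 ± 6.62 CPM in siDDX5 (SD, n = 3 each). edgeR put the difference at -0.34 ± 0.10 on the log2 scale (SE; adjusted p = 0.257, or 0.0697 under the block). RBL2 held 33.5 ± 0.325% of the summed TPM of RB1, RBL1 and RBL2 in control and 28.4 ± 1.73% in siDDX5, while RB1 held 32.5% and 37.9% and RBL1 34.1% and 33.7%.

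**Figure D3:**
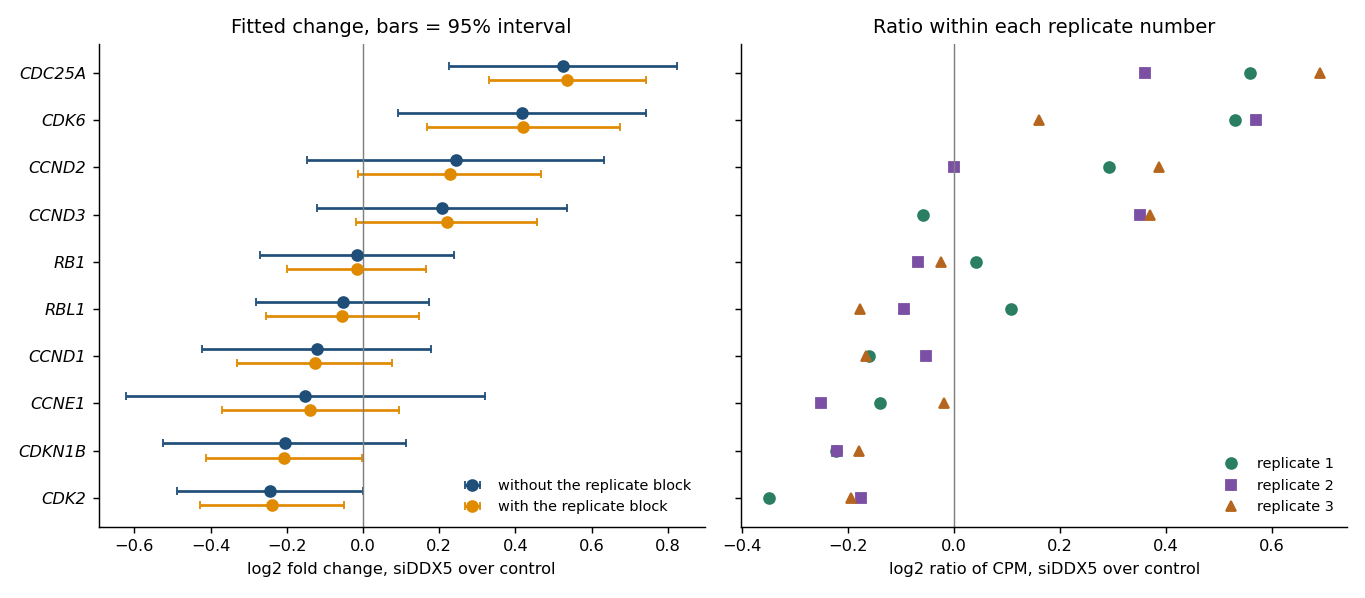
Left, fitted log2 fold change (siDDX5 over control) of the 10 genes with its 95% interval, without (blue) and with (orange) the replicate block. Right, log2 ratio of CPM within each replicate number; all 3 ratios are above 0 for CDC25A, CDK6 and CCND2 (0.00101 within number 2 for CCND2), and all 3 are below 0 for CCND1, CCNE1, CDKN1B and CDK2.

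The other genes of the pathway were followed in a list of 39, of which 38 were tested (CDKN1C was too low). None passed an adjusted p of 0.05 in edgeR, 4 had an unadjusted p under 0.05 (1 higher, 3 lower; 11.3% of all genes did), and 1, E2F8, passed with the block and with DESeq2, beside 2.48% and 2.15% of all genes. The log2 fold change was above 0 for 20 and below 0 for 18, with a median of 0.05. E2F8, a repressive E2F factor, stood at 30.6 ± 4.44 CPM in control and 19.1 ± 3.86 CPM in siDDX5 (SD, n = 3 each). This is a log2 difference of -0.68 ± 0.17 (SE), whose adjusted p in edgeR was 0.178 without the block and 0.0138 under it, and 0.0138 to 0.509 over the alternatives. E2F2, an activating E2F factor, stood at 57.0 ± 7.28 and 42.9 ± 3.96 CPM, with a log2 fold change of -0.41 ± 0.13 (SE; adjusted p = 0.274 in edgeR). E2F7, the relative of E2F8, stood at 86.2 ± 10.1 and 104 ± 7.65 CPM (log2 fold change 0.28 ± 0.12, SE; adjusted p = 0.425 in edgeR), but its mean TPM was 37.1 in control and 35.0 in siDDX5, so its direction depends on the scale. CDKN1A, the p53-responsive inhibitor p21, was looked up by name and had a log2 fold change of 0.08 (adjusted p = 0.877 in edgeR).

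A list of 24 genes known as E2F targets, which RB proteins restrain, was also fully tested. The list does not hold all known targets. CDC25A and RBL1, named above as genes that E2F factors activate, are not in it and had log2 fold changes of 0.52 and -0.05. None of the 24 passed in edgeR, and 5 had an unadjusted p under 0.05, all lower in siDDX5, beside 11.3% of all genes (5.99% lower). With the block 1 passed (MCM3, lower), beside 2.48% of all genes, and with DESeq2 2 passed (MCM3 and POLA1, lower), beside 2.15%. The log2 fold change was below 0 for 20 of the 24, with a median of -0.11 and a range of -0.52 to 0.21, beside 7658 of 15204 genes below 0 in all. The control and siDDX5 values did not overlap for only 2 of the 24, both with siDDX5 below, beside 18% of all genes (9.2% below). MCM3, a subunit of the replicative helicase, stood at 304 ± 22.4 CPM in control and 213 ± 1.87 CPM in siDDX5 (SD, n = 3 each), with no overlap. This is a log2 difference of -0.52 ± 0.10 (SE), whose adjusted p in edgeR was 0.0781 without the block and 0.0246 under it, and 0.000726 to 0.454 over the alternatives. MCM5, of the same helicase, had a log2 fold change of -0.37 (adjusted p = 0.439 in edgeR), and UHRF1, which binds hemimethylated DNA, one of -0.51 (adjusted p = 0.36 in edgeR). POLA1, the catalytic subunit of DNA polymerase alpha, had a log2 fold change of -0.36 (adjusted p = 0.207 in edgeR, DESeq2 0.0416, and 0.0416 to 0.807 over the alternatives). CDC45, which works with the helicase, had one of -0.35 (adjusted p = 0.381 in edgeR).

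**Figure D4:**
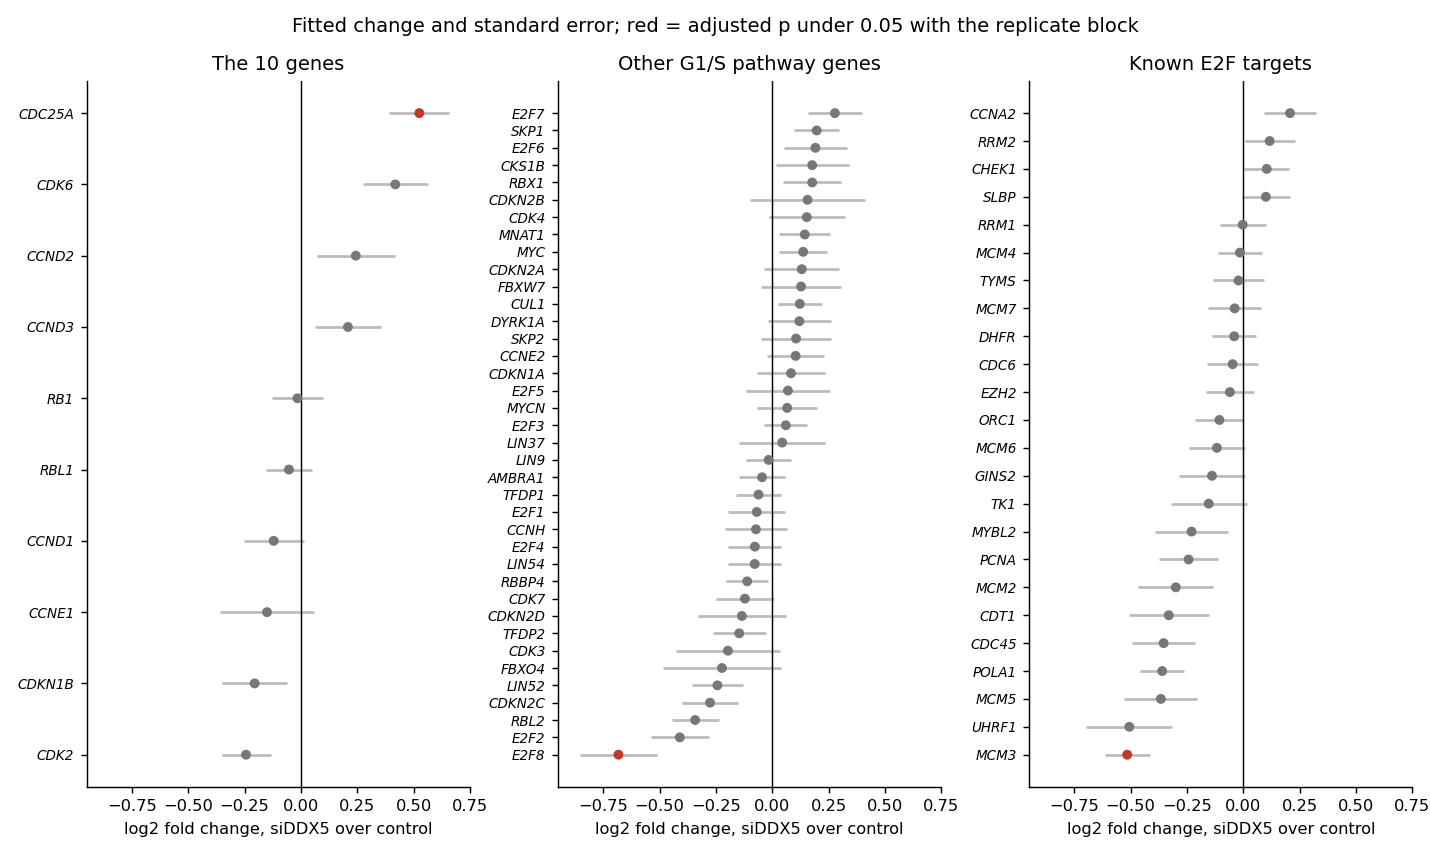
Fitted log2 fold change (siDDX5 over control, bars 1 SE) of the 10 genes, of the 38 tested other pathway genes and of the 24 E2F targets, each panel sorted. Red points (CDC25A, E2F8 and MCM3) have an adjusted p under 0.05 with the replicate block, and 20 of the 24 E2F targets lie below 0.

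The tables list 79 transcripts of the 10 genes, of which 41 passed the filter on low counts. None passed an adjusted p of 0.05 in edgeR (lowest 0.259, or 0.618 under the block), 8 had an unadjusted p under 0.05, and DESeq2 called 1, beside 1.31% of all transcripts. Of all 60811 transcripts tested, edgeR called 0 (0%), with 4324 (7.11%) at an unadjusted p under 0.05. Relative use of transcripts within a gene was tested for 9 of the genes, with 0 called beside 1.58% of all genes tested for it (5.41% at an unadjusted p under 0.05). CCND1 and CCND3 had an unadjusted p under 0.05 in that edgeR test (0.0336 and 0.0199, adjusted p = 0.763 and 0.575). For CCND1, CCND2, CDK6, CDKN1B and RB1 a single transcript held a mean of 98.1 to 99.6% of the counts in either group, so their counts are in effect those of 1 transcript. TPM gives short transcripts more weight: in control the main transcript held 138 of 163 TPM of CCND1, 100.3 of 117 TPM of CCND2 and 85.5 of 100.6 TPM of CDK6.

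CCND3 was mostly ENST00000372991.8, with 84.1 ± 1.81% of the gene's counts in control and 74.9 ± 4.57% in siDDX5 (SD, n = 3 each). ENST00000414200.6 held 3.60, 2.40 and 4.37% in control and 12.2, 8.99 and 10.9% in siDDX5. The siDDX5 shares were all above the control shares, and this is the transcript that DESeq2 called. Its log2 fold change was 1.88 in edgeR (adjusted p = 0.259).

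CCNE1 divided between several coding transcripts. ENST00000444983.6 held 64.7, 61.9 and 61.6% of the gene's counts in control and 46.3, 29.8 and 49.99% in siDDX5, with siDDX5 below in every library (adjusted p = 0.675 in edgeR for its level). ENST00000262643.8 held 28.5 ± 2.94% and 39.0 ± 10.1%, and ENST00000576532.1 held 3.58 ± 0.965% and 10.04 ± 1.57%. The spread among siDDX5 libraries was several times that among controls for the first pair of transcripts. CDC25A kept a similar makeup in both groups: ENST00000302506.7 held 79.9% in control and 78.9% in siDDX5, and ENST00000351231.7 15.4% and 18.2%.

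CDK2 was mainly ENST00000266970.9 (69.9% in control and 73.5% in siDDX5). Its second transcript, ENST00000555408.5, annotated as subject to nonsense-mediated decay, held 20.3 ± 2.58% and 16.0 ± 2.90% (SD, n = 3 each), and the groups overlapped. In level, the log2 fold change was -0.14 for the main transcript (unadjusted p = 0.314, adjusted p = 0.879 in edgeR). For the second transcript it was -0.53 (unadjusted p = 0.0279, adjusted p = 0.666 in edgeR). RBL1 was mainly ENST00000373664.7 (82.1 ± 0.648% and 88.7 ± 5.31%), with ENST00000344359.7 at 13.4 ± 0.770% and 8.55 ± 4.08%. Transcripts of a gene share most of their sequence, so the division of reads between them is an estimate of the quantification model.

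**Figure D5:**
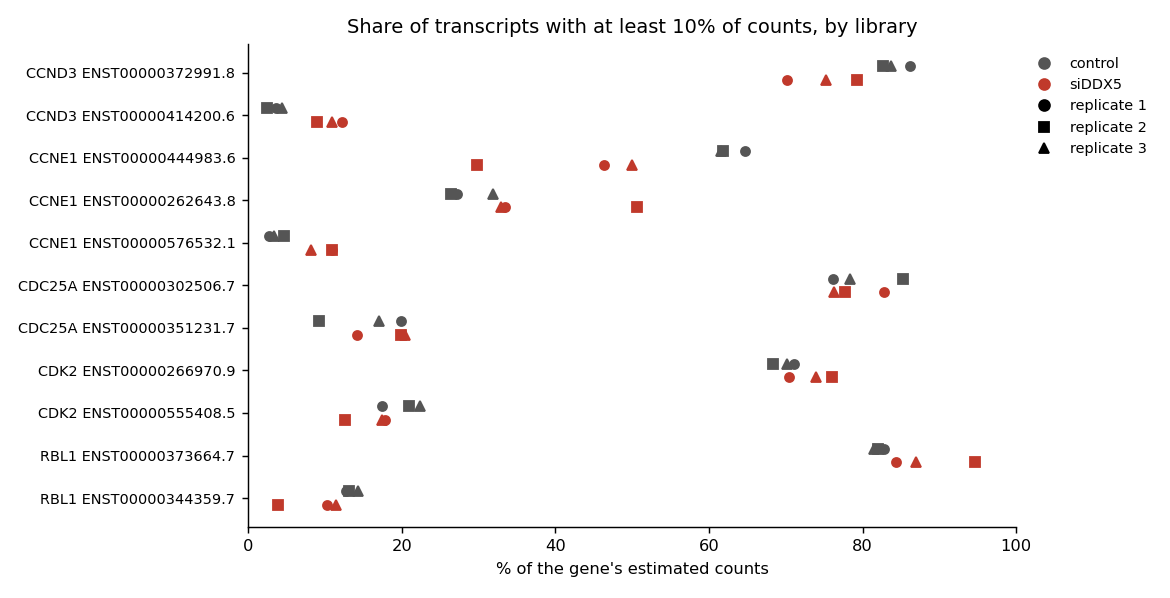
Percent of a gene's estimated counts held by each transcript with at least 10% in either group, for CCND3, CCNE1, CDC25A, CDK2 and RBL1 (control grey, siDDX5 red; circle, square and triangle for replicates 1, 2 and 3). The CCND3 transcript ENST00000414200.6 lies at 2.40 to 4.37% in control and 8.99 to 12.2% in siDDX5.

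Several of the 10 genes are known targets of the miR-26 family, microRNAs that lie in introns of the CTDSP phosphatase genes. CTDSP2 (chr12:57819927-57846739, minus strand), the host of MIR26A2, stood at 2289, 1893 and 2068 CPM in control and 961, 854 and 958 CPM in siDDX5, with no overlap. It fell, with a log2 fold change of -1.17 ± 0.12 (SE; adjusted p = 0.0115 in edgeR). The adjusted p in edgeR was 0.0916 without control replicate 1, 0.0583 without siDDX5 replicate 1 and 0.0507 without siDDX5 replicate 3, with log2 fold changes of -1.09, -1.20 and -1.19. The other hosts had values close to each other in both groups, with log2 fold changes of 0.02 for CTDSPL (adjusted p = 0.972 in edgeR) and -0.07 for CTDSP1 (adjusted p = 0.928 in edgeR). Mature microRNAs were not measured. The mature sequences from RefSeq (GRCh38.p14) are shown because the search below uses their shared seed, bases 2 to 8, in capitals.
hsa-miR-26a-5p, chr12:57824658-57824679, minus strand, in MIR26A2: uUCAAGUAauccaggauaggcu
hsa-miR-26b-5p, chr2:218402657-218402677, plus strand, in MIR26B: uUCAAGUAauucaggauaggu

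The word ACTTGAA, the complement of microRNA bases 1 to 7, was chosen with earlier results of these data known. It was searched on the sense strand of the 3′ UTR of the most abundant protein-coding transcript of each gene (GENCODE 29, GRCh38). It occurred in 2438 of 13576 genes (17.96%) and in 3 of the 10: CCND2 once in 5341 bases, CDK6 4 times in 10219 bases and RB1 in 2 places in 1819 bases. The median 3′ UTR of all genes was 1111 bases, so all 3 are longer than that. The overlapping word TACTTGA, the complement of the seed, occurred in 11.9% of genes and in 4 of the 10, CCNE1 being added. The 8-base word TACTTGAA, which holds both, occurred in 5.16% of genes and in 3 of the 10. The sites are shown with 8 bases on either side, the word in capitals, 5′ to 3′ on the transcript strand.
CCND2, chr12:4301399-4301421, plus strand: ttcagcgtACTTGAAtttttctt
CDK6, chr7:92609249-92609271, minus strand: gcagtgtcACTTGAAatttagta
CDK6, chr7:92608900-92608922, minus strand: tgattcccACTTGAAagccttcc
CDK6, chr7:92608037-92608059, minus strand: gtacccttACTTGAAagtttcta
CDK6, chr7:92606107-92606129, minus strand: ttcttcatACTTGAAattcattc
RB1, chr13:48480231-48480253, plus strand: cctaagccACTTGAAatgttagt
RB1, chr13:48480879-48480901, plus strand: catctagtACTTGAAaaagtaaa
CCNE1, chr19:29824034-29824056, plus strand: gaaggtgcTACTTGAcctaaggg
A match of letters is no evidence that a microRNA binds there. For the genes with a match, the log2 fold changes given above were 0.42 for CDK6, 0.24 for CCND2, -0.02 for RB1 and -0.15 for CCNE1. CCND1, CCND3, CDC25A, CDK2, CDKN1B and RBL1 held none of these words. A link between a word and a change was not tested.

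For each of the 10 genes, the protein-coding genes whose log2 CPM, centred on its own mean, lay closest over the 6 libraries were found among 10741 genes by the root-mean-square difference. The pattern of CDC25A was nearest that of STYX (0.03) and BNIP1 (0.06), beside a spread of 0.31 of CDC25A itself around its mean. That of CDK6 was nearest MFSD9 (0.07) and FNDC3A (0.07), beside 0.27, and that of CDK2 nearest TNFAIP1 (0.03) and PPP2R3B (0.03), beside 0.15. CCND1 was nearest KHDRBS3 and SMPD1, CCND2 nearest TEX30 and COL4A1, and CCND3 nearest NKIRAS2 and AAMP, with differences from 0.04 to 0.08. CCNE1 was nearest ARMC7 and PCDH7, and CDKN1B nearest CDCA7L and KDM5C. RB1 was nearest SLX4IP and SMURF2, and RBL1 nearest MBD4 and ZC3H7A, with differences from 0.01 to 0.02. No chance level was computed for these distances, and none of the 10 had another of the 10 among its nearest pair.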

How the data were processed

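Libraries were made with a stranded mRNA kit, per the labels' protocols. The submitters' processing notes name bcl2fastq 2.20, FastQC 0.11.8, cutadapt 1.11 and kallisto 0.46.0 with GRCh38, and the annotation release is not given in the sources used here. The deposited tables hold, per transcript, the authors' estimated counts and TPM from kallisto. Of 188753 transcripts, 169797 were joined to GENCODE 29 by identifier and 15315 by symbol, and the joined ones held 99.26 to 99.32% of the counts. Some transcript versions are newer than that release, among them those of CCND2, CDKN1B and CDK2.

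Estimated counts were summed per gene, rounded and tested with edgeR 4.0.16 (R 4.3.3; filterByExpr, TMM, quasi-likelihood test, group only), with Benjamini-Hochberg adjustment over all genes and a threshold of 0.05. Transcripts were tested likewise, and relative use with edgeR's diffSpliceDGE. Alternatives used DESeq2 1.42.0, limma 3.58.1 on log2(TPM + 1) and log2(TPM + 0.1), other filters, a replicate block and left-out libraries. The scripts were tested on simulated data. Deviations from the group mean correlated between control and siDDX5 libraries of one number (0.231, 0.312 and 0.647 for numbers 1 to 3, over 15204 genes). Each deviation is taken from the mean of its own group, so these values are not independent. A likeness of the libraries of number 3 alone would also give positive values for the other numbers. The correlations therefore do not show that every number is a pair. The labels do not say what a number shares, so the block is given as an alternative to the main fit by group only.

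The genes, the lists and the word ACTTGAA were chosen with earlier results of these data known. Named list genes are those with an adjusted p under 0.05 without or with the block, and the 3 highest and 3 lowest log2 fold changes among those with an unadjusted p under 0.05 and at least 5 CPM. Named transcripts hold at least 10% of a gene's counts in either group, except 1 of RBL1. One listed marker of another cell type is not reported here. Intervals and the limit for a count of 0 cover only what the libraries show: reads without molecular identifiers are not independent molecules.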

Additional observations from a re-analysis of the deposited data

How the results depend on the processing

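The log2 fold changes of CDC25A (0.36 to 0.67), CDK6 (0.30 to 0.55), CDK2, CDKN1B, CCND1, CCND2 and CCND3 kept their sign in 16 of 16 alternatives. With 1 library left out, CCNE1 lay between -0.345 and 0.00716 (above 0 without siDDX5 replicate 3), RB1 between -0.0732 and 0.0554 (above 0 without control replicate 3 and, at 0.0525, without siDDX5 replicate 2) and RBL1 between -0.0941 and 0.000754 (above 0 without siDDX5 replicate 3). RBL1 turned to 0.00805 without both libraries of replicate 3, a setting chosen after seeing the data. E2F7 turned to -0.0369 with length-scaled counts, -0.0818 on log2(TPM + 0.1) and -0.0798 on log2(TPM + 1). DDX5 stayed between -1.54 and -1.30 when a library was left out, its adjusted p exceeding 0.05 without control replicate 1, siDDX5 replicate 1 or siDDX5 replicate 2; it was -1.37 with length-scaled counts and -1.44 in limma on both TPM scales (adjusted p = 0.0666, 0.0856 and 0.0936). CTDSP2 kept its sign in 16 of 16 alternatives (-1.23 to -1.02) and was called in 9. Of all genes, 26 were called by edgeR, 327 by DESeq2, 377 under the replicate block, 129 when low genes were kept, 2 with length-scaled counts, 1 in limma on either scale, 5 without both libraries of replicate 3, and 0 to 16 when 1 library was left out (0 without control replicate 1, with 1242 at an unadjusted p under 0.05, and 0 without siDDX5 replicate 1, with 2036; 4 without siDDX5 replicate 2). Of the 10 genes, 1 was called by DESeq2 and 1 with the block. Of the other pathway genes these counts were 1 and 1, and of the E2F targets 2 and 1. The block changed no other call given here. DESeq2 called 1 transcript of the 10 genes. Per CPM, CCND2 held 47.9% and 53.2% and CCND3 6.34% and 6.97% of D-type cyclin RNA in control and siDDX5. With 3 libraries a group and a biological coefficient of variation of 15.8% (10.4% with the block), the interval of CCNE1 spans -0.62 to 0.32, so differences of that size were not resolved.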
